A study of Rattus norvegicus with 6 samples.

Results

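The Hox cluster genes were the rows of the deposited mRNA table whose gene name was Hox, a cluster letter from a to d and a paralog number, with nothing after the number. The rule found 37 of 30957 gene rows, carrying 35 distinct symbols because Hoxa5 and Hoxa11 each had 2 rows at 2 loci. There were 10 rows of the HoxA cluster, 10 of HoxB, 8 of HoxC and 9 of HoxD. RNA-seq had been run on the sciatic nerve of Sprague-Dawley rats aged 1 month. The samples were 2 normal control nerves, 2 nerves taken 4 days after crush (D4) and 2 taken 7 days after crush (D7), with 1 library per rat, called a and b in each group. The crush was made by clamping the middle of the left sciatic nerve with hemostatic forceps; the labels call the controls normal, the methods add that they were operated on without clamping, and no transgene, allele or drug was part of the design. The mRNA counts summed to between 18727255 and 25350886 per library.

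Hox genes encode homeodomain transcription factors and lie in 4 clusters, in which the order of the genes along the chromosome follows the order in which they are expressed along the head-to-tail axis of the embryo. Low paralog numbers mark anterior and high numbers posterior territories, and the proteins bind DNA together with TALE homeodomain partners of the Pbx and Meis families. Fibroblasts and other stromal cells of adult tissues keep part of the Hox code of the body region in which they arose. Because a whole nerve was sequenced, fewer cells of an expressing type and less RNA per cell cannot be told apart in any value given here.

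The HoxD cluster showed the whole range from the highest Hox level of the nerve to none over 4 neighbouring genes, from Hoxd8 through Hoxd9 and Hoxd10 to Hoxd11. Their promoters are printed for that reason, and because few promoters of HoxB and HoxC genes were available. Each runs 5′ to 3′ over 300 bases around the annotated start on the plus strand of rat chromosome 3, from RefSeq on build GRCr8, a different build from that of the count tables. The positions are chr3:80014973-80015272 for Hoxd8, chr3:80007756-80008055 for Hoxd9, chr3:80001697-80001996 for Hoxd10 and chr3:79992144-79992443 for Hoxd11. Capitals mark CpG dinucleotides.
Hoxd8: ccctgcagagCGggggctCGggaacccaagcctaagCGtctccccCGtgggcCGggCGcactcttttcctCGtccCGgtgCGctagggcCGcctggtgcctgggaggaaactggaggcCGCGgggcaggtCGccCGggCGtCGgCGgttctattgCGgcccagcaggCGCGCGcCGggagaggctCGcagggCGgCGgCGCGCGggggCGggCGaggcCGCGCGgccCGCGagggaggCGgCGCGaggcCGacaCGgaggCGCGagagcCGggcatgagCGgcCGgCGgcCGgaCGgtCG
Hoxd9: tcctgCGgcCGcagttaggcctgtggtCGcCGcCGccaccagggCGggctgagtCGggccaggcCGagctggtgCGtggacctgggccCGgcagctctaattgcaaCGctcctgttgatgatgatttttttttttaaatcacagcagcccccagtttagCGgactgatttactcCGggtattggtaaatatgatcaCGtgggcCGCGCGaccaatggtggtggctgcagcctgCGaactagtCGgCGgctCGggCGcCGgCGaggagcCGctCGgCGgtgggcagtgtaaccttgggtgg
Hoxd10: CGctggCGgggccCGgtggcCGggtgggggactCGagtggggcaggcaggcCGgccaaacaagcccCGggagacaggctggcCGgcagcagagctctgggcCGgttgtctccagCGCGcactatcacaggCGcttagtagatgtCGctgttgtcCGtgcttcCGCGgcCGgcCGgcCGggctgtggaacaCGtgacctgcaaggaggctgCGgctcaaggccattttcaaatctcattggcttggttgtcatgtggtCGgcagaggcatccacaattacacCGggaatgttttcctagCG
Hoxd11: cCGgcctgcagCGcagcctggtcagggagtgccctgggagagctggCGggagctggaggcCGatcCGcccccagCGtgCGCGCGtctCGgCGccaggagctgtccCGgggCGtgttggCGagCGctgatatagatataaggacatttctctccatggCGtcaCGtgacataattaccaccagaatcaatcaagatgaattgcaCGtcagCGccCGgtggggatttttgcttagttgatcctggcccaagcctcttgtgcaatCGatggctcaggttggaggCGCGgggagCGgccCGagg

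The Hoxd8 promoter held 49 CpG and was 79.0% G or C, and 99.1% of the 33469 rat promoters in the table held fewer CpG. Hoxd9 held 27, Hoxd10 held 24 and Hoxd11 held 25, so these 3 were alike in CpG number. A relation between CpG number and RNA level was not tested. Over the 9 HoxD promoters the median was 25 CpG, against 7 over all promoters. The TATAAA motif, read on both strands, was present in 1 of the 9 HoxD promoters, that of Hoxd13, and in 14.2% of all promoters. The CCAAT motif was found in 5 of 9 on either strand, among them Hoxd9 and Hoxd10 and not Hoxd8 or Hoxd11, and in 37.5% of all. The TGATNNAT motif, a form of the site bound by Pbx and Hox proteins together, was found in Hoxd11 alone of the 9 and in 9.10% of all promoters. These matches describe the letters of the windows.

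In control nerve 10 of the 37 Hox rows were expressed, taken as a deposited FPKM (fragments scaled by transcript length and library total) of at least 1 in both control libraries. They were Hoxb4 and Hoxb6, then Hoxc4, Hoxc5, Hoxc6, Hoxc8 and Hoxc10, and Hoxd4, Hoxd8 and Hoxd9. With a minimum of 0.5 there were 14, with a minimum of 2 there were 4, and by at least 10 counts in both control libraries there were 17. Without control a the number was 13 and without control b it was 11. The median control FPKM was 1.94 over the 18 Hox genes that passed the filter on low counts and 7.52 over all 15195 genes that passed it. Hoxd8, the highest, stood above 50.4% of those genes.

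**Figure D1:**
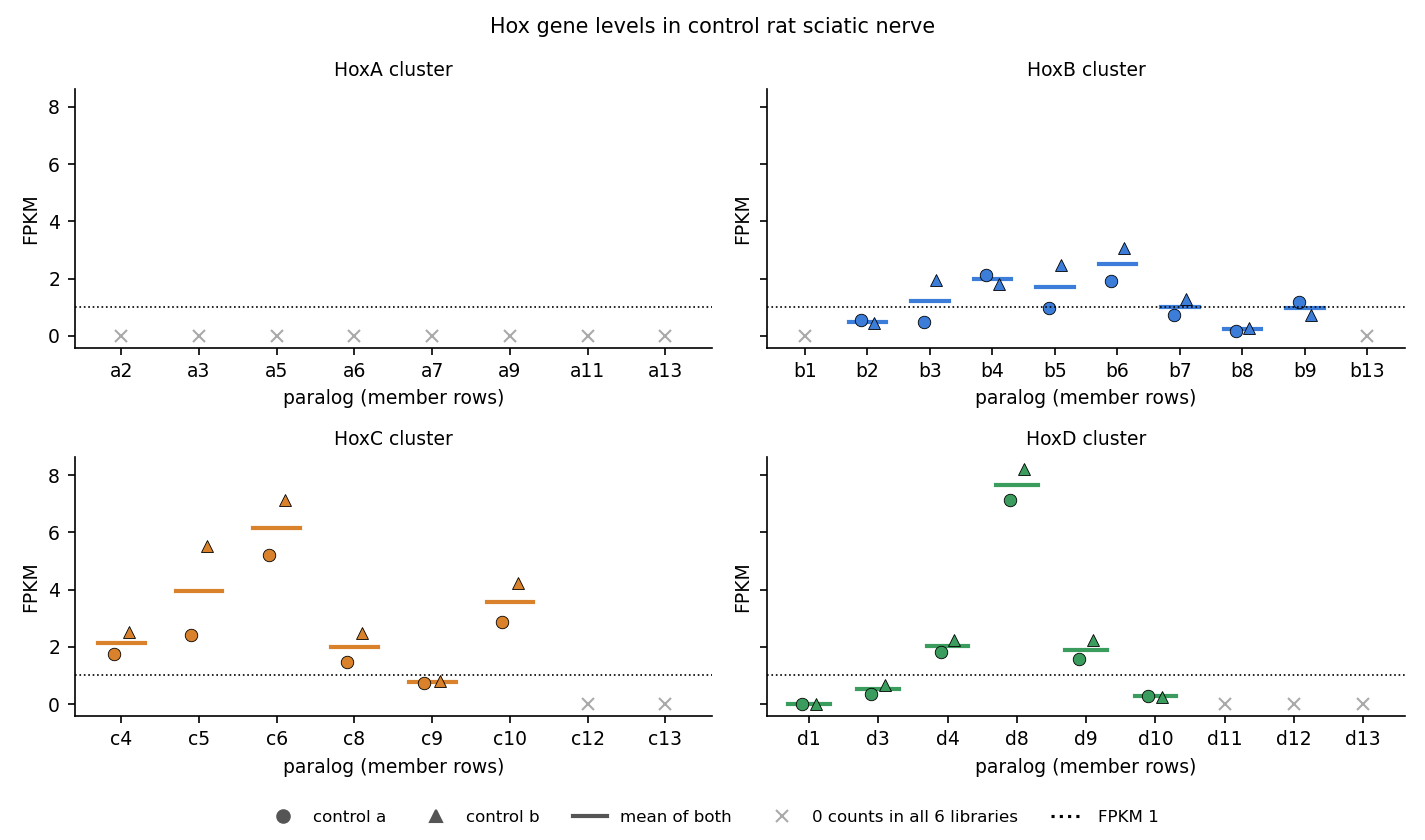
Deposited FPKM (y axis) of each Hox gene (x axis, paralogs in order) in the 2 control libraries, with the mean as a bar, a dotted line at FPKM 1 and a cross for genes with 0 counts in all 6 libraries. The levels peaked at Hoxc6 and Hoxd8, and every HoxA row lay at 0; Hoxa5 and Hoxa11, with 2 rows each at 0, are drawn once.

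Hoxd8 led with an FPKM of 7.11 in control a and 8.21 in control b, followed by Hoxc6 with 5.21 and 7.11. Hoxc5 had 2.41 and 5.52, so its control libraries differed more than those of the genes above it. Hoxc10 had 2.86 and 4.23. Both members of the expressed HoxB pair were lower, with 1.91 and 3.08 for Hoxb6 and 2.12 and 1.81 for Hoxb4. The remaining expressed genes were close together, at 1.74 and 2.53 for Hoxc4, 1.83 and 2.24 for Hoxd4, 1.47 and 2.49 for Hoxc8 and 1.56 and 2.25 for Hoxd9. From Hoxc6 down to Hoxd9 the control ranges of every neighbouring pair in this order overlapped. Within each library some pairs kept their order, such as Hoxc6 over Hoxc5 and Hoxc10 over Hoxb6. Others turned in control a, such as Hoxc5 and Hoxc10 or Hoxc4 and Hoxd4. Overlap of the ranges therefore does not show that neighbours were alike. Hoxd8 and Hoxc6 did not overlap, by a gap smaller than the printed digits show. In CPM, the counts divided by TMM-scaled library totals, 14 of the 18 tested Hox genes were higher in control b than in control a, against 47.1% of all genes tested.

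Next came genes near an FPKM of 1. Hoxb5 had 0.956 and 2.47, Hoxb3 0.499 and 1.95, Hoxb7 0.743 and 1.30, Hoxb9 1.19 and 0.740, and Hoxc9 0.729 and 0.816. Below them Hoxd3, Hoxb2, Hoxd10 and Hoxb8 had 0.183 to 0.654. Hoxb8 had 0 to 11 counts per library and Hoxd1 had 2 counts, both in D7 a, and neither passed the filter.

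The expressed genes were all of paralogs 4 to 10. Of the 16 rows of paralogs 4 to 10 in HoxB, HoxC and HoxD, all 16 had counts and 10 were expressed. Of the 5 rows of paralogs 1 to 3, 4 had counts and 0 were expressed, and the 6 rows of paralogs 11 to 13 had 0 counts in every library. These 3 bands were drawn after the levels were seen. The rule for names left out Hoxc11: the row LOC100911859 (7:144565392-144567580, Rnor_6.0), to which RefSeq gives that symbol, had counts of 14 and 20 in control, 24 and 19 at D4, and 15 and 15 at D7. Its FPKM was 0.680 and 1.17 in control, close to Hoxc9, so the band of posterior genes at 0 does not cover HoxC paralog 11. The log2 fold change of that row was -0.18 ± 0.44 (SE) at D4 and -0.40 ± 0.46 at D7, with adjusted p = 0.759 and 0.518 in edgeR's quasi-likelihood test.

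HoxA was listed at 0 throughout. All 10 HoxA rows had 0 counts in all 6 libraries, while 2 of 10 HoxB rows (Hoxb1, Hoxb13), 2 of 8 HoxC rows (Hoxc12, Hoxc13) and 3 of 9 HoxD rows (Hoxd11, Hoxd12, Hoxd13) did. Of all gene rows 35.9% were at 0. The zeros reached past the Hox genes: between Skap2 and Hibadh on chromosome 4, a stretch of 635.5 kb, all 22 gene rows had 0 counts in every library, 9 of them Hox rows and 5 others described as Hox-A-like homeobox proteins. Skap2, on one side, had 487 to 1448 counts and Hibadh, on the other, 1150 to 1996. No lncRNA transcript of the lncRNA table lay in the stretch. Hoxa13 was placed on an unassembled scaffold, as was the row that RefSeq names Hoxa10, and the row named Hoxa4 by RefSeq also had 0 counts. The locus holds more than 1 copy of Hoxa5 and Hoxa11 in the Rnor_6.0 annotation, and how fragments matching 2 places were counted is not given in the sources used here. The part of this in the zeros was not tested. By counting error alone, a count of 0 allows up to 3 counts per library, or 0.118 to 0.160 CPM on the unscaled totals. That floor limits the HoxA RNA only if fragments from this stretch could be counted.

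The second question was how crush changed the expressed paralogs. At D4 every tested HoxC and HoxD gene had a fitted value below control, most of them without passing the test, and the HoxB genes were mixed. Of the 18 Hox genes that passed the filter on low counts, 2 fell: Hoxc8 and Hoxc9, neighbours in HoxC. A gene was called when edgeR's quasi-likelihood test gave a Benjamini-Hochberg adjusted p under 0.05 over all genes and the change was at least 2-fold. Of all genes tested, 10.7% were called lower and 11.2% called higher, so 2 of 18 lower was close to the background. With 18 genes, 0 higher cannot be told apart from that share. The sets also differed in level, with a median control FPKM of 1.94 for the Hox genes and 7.52 for all genes. At an unadjusted p under 0.05 in edgeR's test there were 6 of 18, against 53.2% of all genes. Without the fold limit 4 Hox genes were lower, adding Hoxc10 and Hoxd8, and 0 were higher, against 22.6% and 21.6% of all genes.

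Hoxc9, a thoracic paralog, had 15 and 14 counts in control, 7 and 8 at D4, and 11 and 12 at D7. As TMM-normalized CPM these were 0.773 and 0.844, then 0.287 and 0.296, then 0.516 and 0.594, and the groups did not overlap. The log2 fold change at D4 was -1.45 ± 0.44 (SE), adjusted p = 0.0399 by edgeR. With these few counts the call stood in edgeR's exact test and without the fold limit. It was lost in the others that tested the gene, with fold changes of -1.17 to -1.52 and adjusted p of 0.0534 to 0.176 (DESeq2 -1.45, adjusted p = 0.136).

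Hoxc8 had 71 and 100 counts in control, 57 and 67 at D4, and 91 and 76 at D7. Its normalized values were 3.66 and 6.03 CPM in control, 2.34 and 2.48 at D4, and 4.27 and 3.76 at D7, so the D4 libraries lay together below both others. The log2 fold change at D4 was -1 to 2 decimals, with SE 0.30 and adjusted p = 0.0398, so the call sat on the 2-fold limit. DESeq2 gave -0.98 with adjusted p = 0.0337, under 2-fold. In edgeR's quasi-likelihood test the adjusted p was also lost in other settings. These were the 2 groups alone (-0.95, adjusted p = 0.0671), the replicate block (-0.99, adjusted p = 0.0576) and library totals alone (-0.72, adjusted p = 0.103). Without control b the fold change was -0.60, without D4 a -0.96 and without D4 b -1.04.

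Hoxd8 and Hoxc10 passed the adjusted p at D4 short of 2-fold. Hoxd8, the Hox gene with the highest FPKM in control nerve, had 133 and 128 counts in control, 91 and 106 at D4, and 127 and 103 at D7. Its normalized levels of 6.85 and 7.72 CPM in control stood against 3.74 and 3.92 at D4 and 5.96 and 5.10 at D7, with no overlap between any pair of groups. The D4 difference was -0.93 ± 0.20 on the log2 scale, with the lowest adjusted p of the Hox genes, 0.0125 by edgeR. Hoxc10, a lumbar paralog that patterns the hindlimb level, had 116 and 143 counts in control, 92 and 102 at D4, and 61 and 69 at D7. Its levels were 5.97 and 8.62 CPM in control, 3.78 and 3.77 at D4, and 2.86 and 3.41 at D7. Its log2 fold change at D4 was -0.95 ± 0.26 with adjusted p = 0.0268. Without control a the fold changes were past 2-fold, at -1.01 for Hoxd8, -1.19 for Hoxc10, -1.45 for Hoxc5 and -1.32 for Hoxc8. Without control b they were -0.84 for Hoxd8 and -0.66 for Hoxc10. Without D4 a or D4 b neither of these passed the adjusted p, with fold changes of -0.89 to -0.96. Hoxc10 also did not pass it without control b or with library totals alone (-0.66, adjusted p = 0.0819 by edgeR). In fits that left 1 library in a group, the spread came from the other groups.

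**Figure D2:**
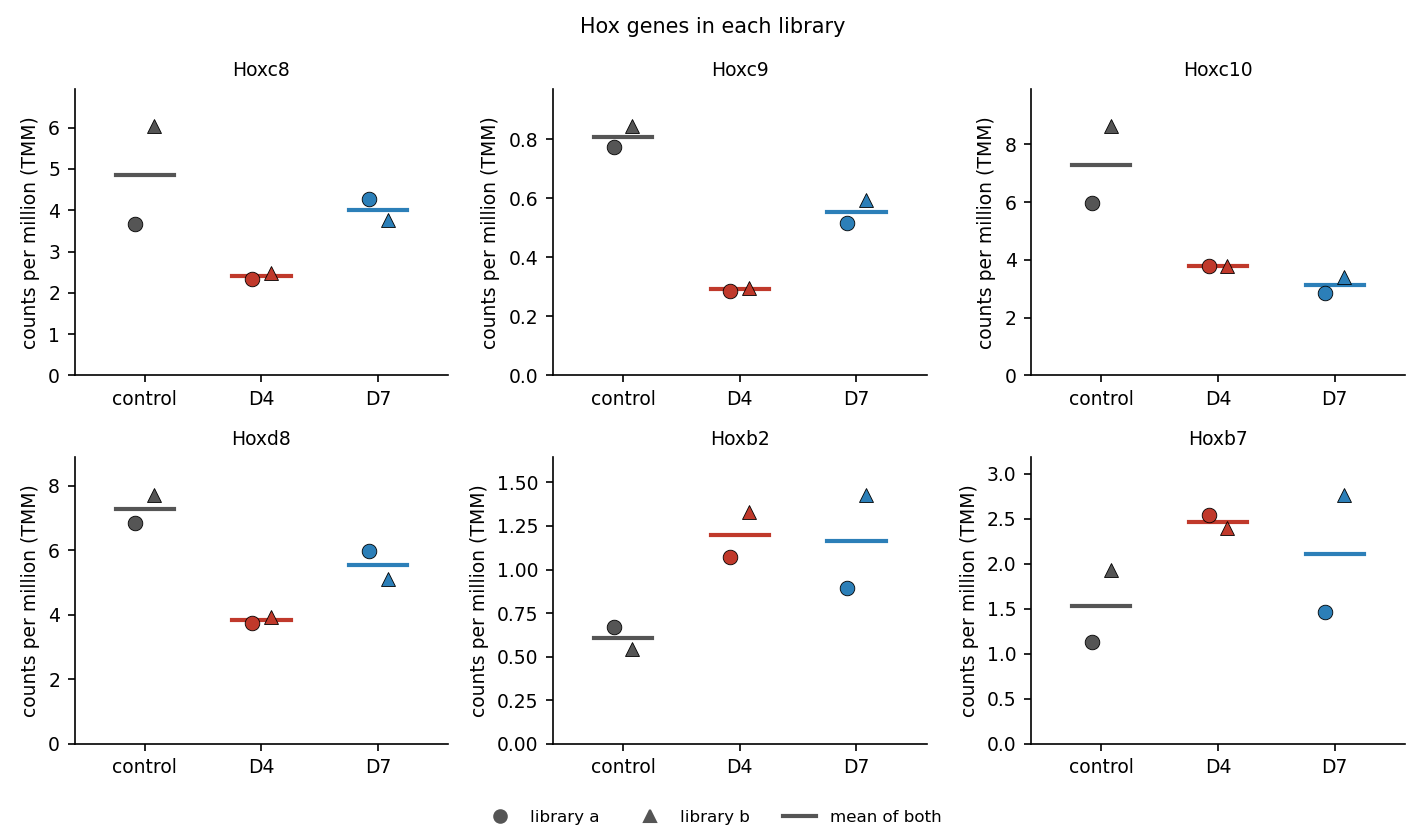
TMM-normalized CPM (y axis, from 0) of 6 Hox genes in each library of the 3 groups (x axis), with the mean of the 2 libraries as a bar. Hoxc8, Hoxc9 and Hoxd8 were lowest at D4, Hoxc10 was lowest at D7, and Hoxb2 was higher than control in both crush groups.

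The other HoxC and HoxD genes had the same sign at D4 without passing the test. Hoxc5 had 148 and 283 counts in control, 132 and 191 at D4 and 194 and 201 at D7, with a D4 log2 fold change of -0.98 ± 0.38 with adjusted p = 0.0821. Its control libraries differed by more than the groups did. Without control b its D4 fold change was -0.29, against -1.45 without control a. Hoxd4 had 111 and 113 in control, 72 and 117 at D4 and 88 and 81 at D7, at -0.78 ± 0.26 and adjusted p = 0.0523 at D4. Hoxc6 was at -0.61 and adjusted p = 0.108 with 145 and 165 counts in control, 112 and 184 at D4 and 153 and 165 at D7. Hoxd10, at the edge of detection, had 14 and 11 counts in control, 2 and 7 at D4, and 0 and 6 at D7. Its log2 fold change was -1.96 at D4 and -2.21 at D7, with 95% intervals from -4.41 to 0.49 and from -4.82 to 0.41 and adjusted p = 0.160 and 0.154. Hoxc4 had 81 and 98 counts in control, 71 and 118 at D4 and 77 and 86 at D7. Hoxd9 had 63 and 76, 53 and 76, and 47 and 81. At D4 Hoxc4 (-0.47), Hoxd9 (-0.65) and Hoxd3 (-0.47) had adjusted p between 0.209 and 0.447. In that order their fold changes were -0.20, -0.38 and -0.03 without control b, and -0.79, -0.84 and -0.98 without D4 b.

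Counted over clusters at D4, 6 of 6 tested HoxC genes and 5 of 5 tested HoxD genes had a fitted fold change below 0, with medians of -0.96 and -0.78 on the log2 scale. HoxB had 4 of 7 below 0 and a median of -0.15. Hoxd10 passed the filter on low counts only through its control counts, so counting it as lower was partly decided by the filter. With at least 10 counts in every library, which leaves out Hoxd10, 5 of 5 HoxC and 4 of 4 HoxD genes were below 0. The medians were then -0.91 and -0.68, and 13 of 15 Hox genes were below 0. Over the 18 genes 15 were below 0, against 52.0% of all genes tested, and the median was -0.63, against -0.04 over all genes. In 10 of 18 both D4 libraries lay below both control libraries, against 39.4% of all genes, and in 2 both lay above, against 36.9%. The scaling moved these values: with library totals alone the median of all genes was 0.25 at D4 and 0.31 at D7 in place of -0.04 and 0.01. The Hox median at D4 was then -0.34, with 13 of 18 below 0, and HoxB went to 2 of 7. The 6 HoxC genes and the 5 HoxD genes stayed below 0 at D4 with that scaling and with each library left out in turn. Their sizes rested partly on control b: without it the HoxC median was -0.50, the HoxD median -0.65, the HoxB median 0.56 and the median of all 18 was -0.33.

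**Figure D3:**
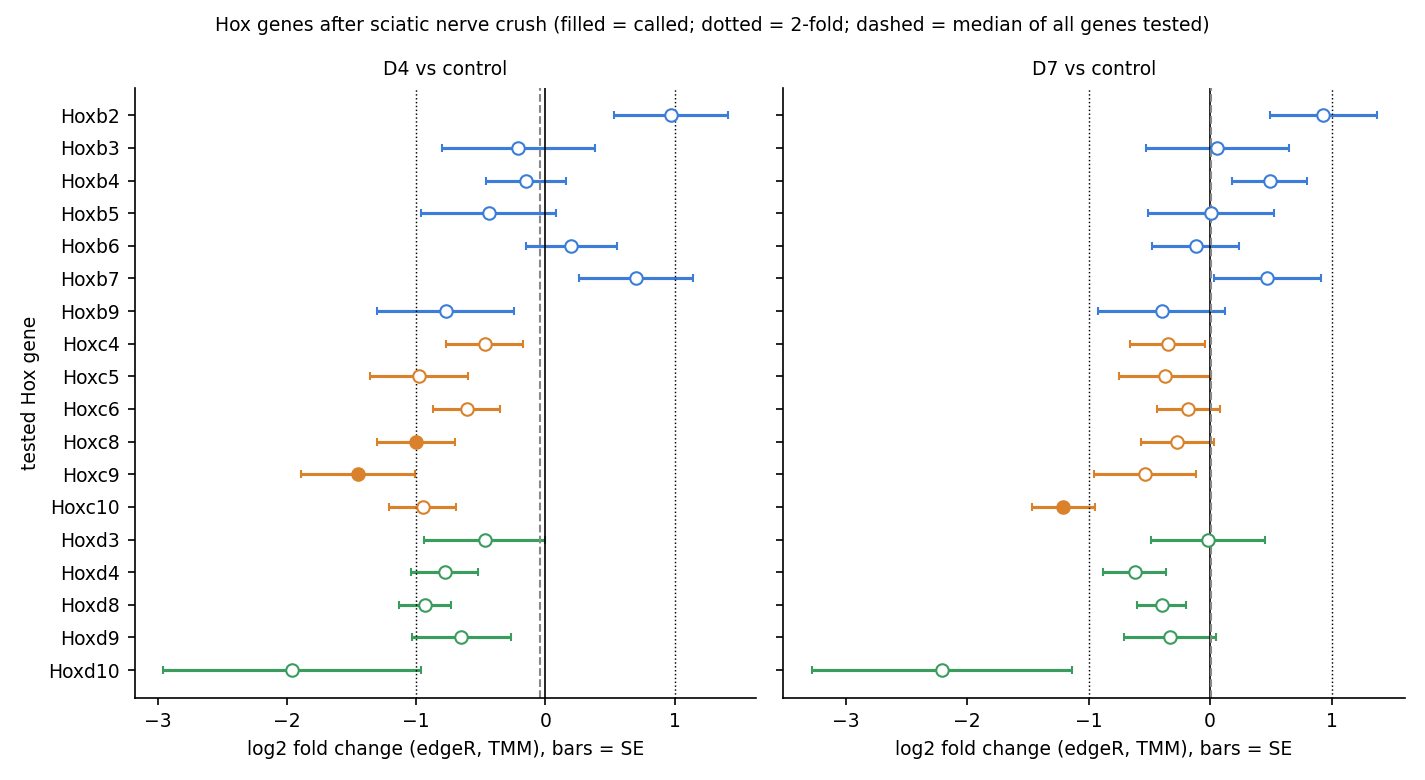
Log2 fold change at D4 (left) and D7 (right) against control (x axis) of the 18 tested Hox genes (y axis), with SE as bars, filled symbols for called genes, dotted lines at 2-fold and a dashed line at the median of all genes tested. HoxC and HoxD genes lay to the left at D4, and Hoxb2 and Hoxb7 to the right.

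No HoxB gene was called in either direction. Hoxb2, an anterior paralog known for hindbrain patterning, had 13 and 9 counts in control, 26 and 36 at D4, and 19 and 29 at D7. In normalized CPM it stood at 0.670 and 0.543, 1.07 and 1.33, and 0.892 and 1.43, so both crush groups lay above control. The log2 fold change was 0.97 ± 0.44 at D4 and 0.93 ± 0.44 at D7, with adjusted p = 0.118 and 0.148. Hoxb7 had 22 and 32 counts in control, 62 and 65 at D4, and 31 and 56 at D7, and was at 0.70 ± 0.44 at D4 with adjusted p = 0.236. Hoxb4 had 84 and 60, 65 and 121, and 108 and 124 counts, and its D7 difference of 0.49 ± 0.31 had adjusted p = 0.251. Hoxb6, the other expressed HoxB gene, had 29 and 39, 46 and 68, and 35 and 38 counts, with 0.20 at D4 and -0.12 at D7 on the log2 scale. Hoxb9 had 25 and 13, 18 and 13, and 22 and 11 counts, and in CPM both D4 libraries lay below both control libraries. Its log2 fold change was -0.77 ± 0.53 at D4 and -0.40 ± 0.52 at D7, with adjusted p = 0.274 and 0.582 by edgeR. Hoxb3 (24 and 78 counts in control) and Hoxb5 (33 and 71) varied so much between the control libraries that their sign at D4 turned with control b left out, from -0.21 to 1.04 and from -0.44 to 0.36.

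The fold changes were also set against the paralog numbers. At D4 the median log2 fold change was -0.34 for the 6 tested genes of paralogs 1 to 4, -0.61 for the 7 of paralogs 5 to 8, and -0.95 for the 5 of paralogs 9 and 10. At D7 the same bands gave 0.02, -0.18 and -0.54. Spearman's rho between paralog number and log2 fold change was -0.64 at D4 and -0.66 at D7 across 18 genes. With the row of Hoxc11 added it was -0.48 and -0.68 across 19, and -0.18 at D4 without D4 b. Hoxd10, with the lowest fold change at both days, passed the filter only through control. With at least 10 counts in every library, which leaves Hoxd10 out, rho was -0.46 at D4 and -0.48 at D7 across 15 genes. With the row of Hoxc11 added to those, rho was -0.28 and -0.52. Over the 18 genes, with a library left out it lay between -0.72 and -0.34 at D4, the weakest without D4 b, and between -0.69 and -0.35 at D7, the weakest without control a. The values with the row of Hoxc11, with at least 10 counts in every library or with a library left out were added after seeing the data. These are descriptions across genes of the same 6 libraries, the comparisons share their control libraries, and 3 of the 6 low-numbered genes and 1 of the 5 high-numbered genes were from HoxB.

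At D7 Hoxc10 fell, with a log2 fold change of -1.21 ± 0.26 (SE) and adjusted p = 0.0147 by edgeR, and it was the only Hox gene called: 1 of 18 lower and 0 higher, against 9.02% and 9.83% of all genes. It was the only one past the adjusted p at any fold as well, against 18.1% of all genes lower and 19.5% higher. DESeq2 and the fit of only these groups called it too. It was not called without control b (-0.93, adjusted p = 0.0530), without D7 a (-1.06, adjusted p = 0.0774) or with library totals alone (-0.92, adjusted p = 0.0331). Without D7 b, Hoxd10 was also called, against D7 a alone, where it had 0 counts, with the spread taken from the other groups (adjusted p = 0.0397); a fold from that 0 is not given.

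Over the 18 genes the D7 median was -0.30, against 0.01 over all genes tested, and 13 were below 0, against 49.1% of all genes. Both D7 libraries lay below both control libraries in 5 of 18 (Hoxc9, Hoxc10, Hoxd4, Hoxd8, Hoxd10), against 34.7% of all genes, and above in 2 (Hoxb2, Hoxb4), against 37.2%. HoxC had 6 of 6 below 0 with a median of -0.36, HoxD 5 of 5 with -0.40 and HoxB 2 of 7 with 0.06. Hoxd10 was among these, although it passed the filter only through control. With at least 10 counts in every library HoxD had 3 of 4 below 0 with a median of -0.33. HoxC then had 5 of 5 with -0.32, and 10 of 15 Hox genes were below 0. The lower direction at D7 rested on control b: without it 8 of 18 were below 0 and the median was 0.08. With library totals alone the Hox median was -0.01 and that of all genes 0.31, with 9 of 18 Hox genes below 0 against 31.8% of all genes.

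Between D4 and D7 no Hox gene was called, against 1.68% of all genes higher at D7 and 0.494% lower. None passed the adjusted p at any fold, against 2.88% higher and 1.79% lower, and 1 of 18 had an unadjusted p under 0.05 in edgeR's test (0 with DESeq2), against 24.7% of all genes in edgeR's test. That gene was Hoxd8, which was higher at D7 by 0.53 ± 0.20 on the log2 scale (95% interval 0.04 to 1.02, adjusted p = 0.176). Hoxc9 differed by 0.91 ± 0.45, Hoxc8 by 0.74 ± 0.30 and Hoxb4 by 0.65 ± 0.31, with adjusted p of 0.205 to 0.273. Hoxc10 stood at -0.27 with an interval from -0.90 to 0.37. The median over the 18 was 0.35, against 0.01 over all genes, and 5 were below 0, against 48.5%. This rested on D4 a: without it the median was 0.07, against 0.02 over all genes, with 7 below 0, and without D4 b it was 0.54 with 3 below 0. Both D7 libraries lay above both D4 libraries in 7 of 18, against 31.5% of all genes, and below in 2, against 29.1%. The calls at D4 for Hoxc8 and Hoxc9 and not at D7 are therefore not shown to be a difference between the days.

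lncRNA transcripts lie between and across the Hox genes. From the first to the last Hox gene of each cluster the lncRNA table held 18 transcripts in HoxB, 8 in HoxC, 6 in HoxD and 0 in HoxA, and 17 of the 32 passed the filter on low counts. At D4 1 fell and 0 rose, against 10.1% of all lncRNAs called in either direction, and at D7 0 were called, against 5.79%. At an unadjusted p under 0.05 in edgeR's test there were 4 at D4 and 2 at D7, against 28.5% and 25.5% of all lncRNAs tested. DESeq2 called 2 and 1, against 13.7% and 11.7%. The median log2 fold change was -0.32 at D4 and -0.29 at D7, against 0.02 and 0.04 over all lncRNAs tested. Some of the 17, among them NONRATT004804.2 at Hoxb6, overlapped Hox gene rows. Because the use of strand in counting is not known, these medians cannot be taken as independent of the Hox mRNA values.

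The lncRNA that fell was NONRATT018269.2 (3:61652335-61653581, Rnor_6.0, 1247 bases), which lay between Hoxd4 and Hoxd3 and overlapped neither. It had 64 and 86 counts in control, 20 and 33 at D4, and 46 and 42 at D7. In normalized CPM of lncRNA these were 23.3 and 33.9, 7.14 and 10.6, and 16.1 and 15.1, with no overlap between groups. The log2 fold change was -1.68 ± 0.34 at D4, adjusted p = 0.0359, and -0.87 ± 0.33 at D7, adjusted p = 0.172. With each library left out in turn its adjusted p lay between 0.0560 and 0.172, so the call needed all 6 libraries.

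NONRATT018268.2 (3:61648074-61648704) lay inside Hoxd4 and had 55 and 19 counts in control, 3 and 2 at D4, and 27 and 3 at D7. Its log2 fold change at D4 was -3.95 ± 1.16 with adjusted p = 0.0911. Whether the counting used strand is not given in the sources used here, so its fragments cannot be told apart from those of Hoxd4. MSTRG.17846.1 (3:61675046-61676634), a newly predicted transcript between Hoxd3 and Hoxd1, had 10 and 8 counts in control, 3 and 24 at D4, and 84 and 57 at D7. Both D7 libraries lay above the 4 others, at 2.86 ± 0.79 on the log2 scale and adjusted p = 0.0962. DESeq2 called it.

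**Figure D4:**
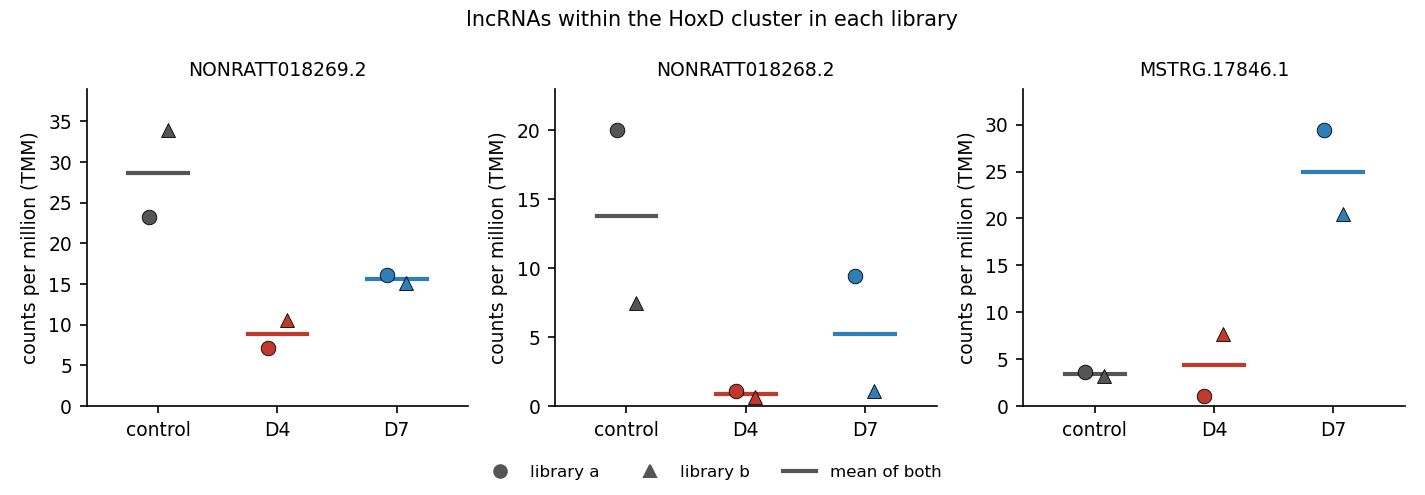
TMM-normalized CPM of lncRNA (y axis, from 0) of 3 lncRNAs of the HoxD cluster in each library of the 3 groups (x axis), with the mean of the 2 libraries as a bar. NONRATT018269.2 and NONRATT018268.2 were lowest at D4, and MSTRG.17846.1 was highest at D7.

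Of the nearest gene rows outside the clusters 2 were tested, Mtx2 and Skap1, both with fold changes above 0. Mtx2, beyond Hoxd1, had 222 and 154 counts in control, 449 and 434 at D4, and 333 and 397 at D7, at 0.73 and 0.77 on the log2 scale with adjusted p = 0.0205 and 0.0209, under 2-fold. Evx2, beyond Hoxd13, had 0 counts in every library. Skap1, beyond Hoxb1, had 4 to 25 counts and was not called (1.03 and 1.53, adjusted p = 0.192 and 0.0797), and Ttll6, beyond Hoxb13, had 2 counts in all. The row beyond Hoxc13 was named Tbca and that beyond Hoxc4 was AABR07058935.1, and both were under the filter with at most 9 counts in a library.

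Genes that work with or act on Hox genes were listed with earlier results of these data known, and their counts stand beside 11.2% of all genes called higher and 10.7% lower at D4, and 9.83% and 9.02% at D7. Of 9 TALE homeodomain cofactors, all tested, Meis3 rose at D4 and D7 (1.03 and 1.06 on the log2 scale, adjusted p = 0.00421 and 0.00493 by edgeR) and 0 fell. Of 24 tested Polycomb genes, whose complexes keep Hox genes silent, 2 rose and 1 fell at D4 and 2 rose and 2 fell at D7. Ezh2, the methyltransferase of PRC2, rose by 1.70 and 1.67, and Phf19, a PRC2 accessory factor, by 1.80 and 1.04. Cbx7, a PRC1 chromodomain subunit, was at -1.56 and -1.01, and Ezh1, the other PRC2 methyltransferase, was at -0.99 at D4 and was called at D7, at -1.04. These 4 had adjusted p of 0.000366 to 0.00787 where called. Of 12 tested Trithorax and H3K27 demethylase genes 0 were called at D4, and at D7 Kdm6b, which removes the repressive mark, rose by 1.27 (adjusted p = 0.00172).

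Retinoic acid induces Hox genes in the embryo. Of 16 tested retinoic acid genes 3 rose and 3 fell at D4, and 2 rose and 1 fell at D7. Crabp2, which carries retinoic acid in the cell, rose by 3.00 and 2.44, and Rdh10, which makes retinaldehyde, by 1.98 and 1.78, with adjusted p of 0.000162 to 0.000872. Cyp26b1, which degrades retinoic acid, was at -1.34 and Aldh1a1, which makes it, at -1.16 at D4 (adjusted p = 0.0106 and 0.000941), and Aldh1a3, another synthesizing enzyme, was at -1.04 at D7 (adjusted p = 0.00749). Of other homeobox genes related to the clusters 2 of 12 were tested, and Meox2, found in mesoderm and vessels, fell, at -1.13 and -1.21 (adjusted p = 0.0115 and 0.0111). Of 6 tested limb and positional homeobox genes 1 fell at D4 and 2 at D7. These were Msx1 at both days (-1.57 and -1.62, adjusted p = 0.0464 and 0.0497) and Shox2 at D7 (-1.50, adjusted p = 0.0269).

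Marker genes of other cell types moved with the groups. Beside the lower HoxC and HoxD values, the summed normalized level of 6 fibroblast markers was 28073 to 29489 CPM in control, 18068 to 19615 at D4 and 13937 to 15684 at D7, with 0 of 6 called at D4 and 1 of 6 called lower at D7. Most of that sum was Col1a1, with 24899.7 and 26451 CPM in control. The median fold change of the 6 was -0.13 at D4 and -0.40 at D7 on the log2 scale, and Pdgfra was at 0.68 at D4 (adjusted p = 0.00474). The summed level of 5 perineurial markers was 2469 to 3072, 1081 to 1119 and 1305 to 1666, with 2 and 3 of 5 called lower. That of 4 endothelial markers was 488 to 544, 239 to 299 and 174 to 256, with 3 and 4 of 4 called lower. Pericyte and smooth muscle markers summed to 1135 in control a and 5253 in control b, mostly through Myh11 (298.2 and 2621.9 CPM) and Acta2 (240.6 and 1721.9), and to 776 to 905 at D4 and 604 to 1066 at D7, with 1 and 2 of 5 called lower, and 4 adipocyte markers had 888 to 1098, 123 to 252 and 4.41 to 351 with 0 called.

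Macrophage markers rose, 6 of 6 at D4 and 5 of 6 at D7, from 210 to 227 in control to 736 to 751 and 463 to 581 CPM, and so did 5 of 5 markers of cycling cells at both days, from 31.7 to 67.3 to 812 to 956 and 544 to 582. Of 6 myelin genes 6 fell at D4 and 4 at D7, and 5 were higher at D7 than at D4. Of 6 Schwann lineage markers 2 rose and 2 fell at D4, and 2 rose at D7. Skeletal muscle markers had 20.5 to 50.9, 7.31 to 81.9 and 9.44 to 22.1, with 1 of 6 called lower at both days. No marker in the table was at 0 in both control libraries, and Tnnt1 and Ckm of the muscle list were at 0 in control a. The part of these cell types in the Hox values was not tested.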

How the data were processed

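The samples and groups came from the labels: 2 libraries each of control, D4 and D7 nerve. Per the study's methods total RNA was depleted of ribosomal RNA and sequenced in pairs; the submitters' processing notes name HISAT2 2.0.4, StringTie 1.3.0, edgeR and Rnor_6.0. The deposited mRNA and lncRNA tables hold raw fragment counts from StringTie and FPKM computed by the authors; the deposited FPKM followed the library totals, without TMM factors. Multiple matches and strand are not given in the sources used here. All columns were used.

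Counts were tested in R 4.3.3 with edgeR 4.0.16 (filterByExpr, TMM, glmQLFit and glmQLFTest, 1 fit of 6 libraries per table, Benjamini-Hochberg over all 15195 mRNA genes or 14077 lncRNAs tested). A call needed adjusted p under 0.05 and a 2-fold change. SE is the fold change over the square root of F. The fit was tested on simulated data. Alternatives were the groups compared alone, a replicate block, DESeq2 1.42.0, library totals without TMM factors, the exact test of edgeR, no filter, at least 10 counts in every library, no fold limit, each library left out and other expression minima. Counts of fold changes below 0 under these settings were added after seeing the data. Tables and plots were made in Python 3.11.15 (matplotlib 3.10.9, pandas 2.3.3, numpy 2.4.6, scipy 1.17.1).

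Every row of the name rule is accounted for, and values in each library are given for called genes and for the 10 with the highest control FPKM; those given for other Hox genes were chosen after their values were seen. From other lists at most the 2 largest rises and falls per contrast are named. Members and lists were chosen with earlier results of these data known. The promoter table used here, made from RefSeq, held 18 of the 35 symbols. The libraries are single rats, so p-values measure the spread between 2 rats a group. Floors of counts cover counting error only, and intervals of fold changes come from the edgeR fit and include the spread between rats.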

Additional observations from a re-analysis of the deposited data

Results flagged for a closer look

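Rxrg, a retinoid X receptor gene of the retinoic acid list, was the gene among the Hox genes and the pathway lists called between D7 and D4 in the test of that difference with the 2-fold limit, at 1.78 ± 0.28 on the log2 scale (adjusted p = 0.0306 by edgeR's quasi-likelihood test). It had 299 and 194 counts in control, 147 and 178 at D4, and 573 and 330 at D7, so the D4 libraries lay below both other groups. Rxrg was the 1 call among 18 tested Hox genes and lists of 9, 24, 12, 2, 16 and 6 tested genes. Of all genes tested, 1.68% were called higher at D7 and 0.494% lower, so 1 call among these genes does not set them apart. Dhrs3 (-0.62, adjusted p = 0.0451) and Stra6 (-0.83, adjusted p = 0.0469), of the same list, passed the adjusted p short of 2-fold and were lower at D7. Of the 6 myelin genes 5 were also called higher at D7 than at D4, with a median of 2.31 over the 6.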

How the results depend on the processing

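At D4, where 2 Hox genes were called lower, 0 were called with only the groups compared, with the replicate block, with DESeq2, with no TMM factors, with no low-count filter and with at least 10 counts in every library, and 4 with no fold threshold (Hoxc8, Hoxc9, Hoxc10, Hoxd8). With each library left out the number was 0 to 4, the 4 without control a. At D7, where 1 was called, 0 were called with no TMM factors, and 0 to 2 with a library left out. For D7 against D4 every alternative called 0. The replicate block, which pairs libraries by letter, left Hoxc10 called at D7. The letters name different rats, and deviations from the group means correlated by 0.0103 between D4 and control, 0.195 between D7 and control and -0.134 between D7 and D4, so the samples share only a letter. The expressed genes numbered 10, 4 at an FPKM minimum of 2 and 17 by counts, and 11 to 13 with 1 control library. Of the lncRNAs in the clusters 1 was called at D4, 0 with the replicate block or no filter, 2 with DESeq2 or edgeR's exact test, and 0 with any library left out; at D7, 1 was called with only the groups compared, with DESeq2 and with the exact test, and 0 to 1 with a library left out. At D4 the Hox genes below 0 numbered 13 to 16 with a library left out, and at D7 8 to 14.

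Among the values of single genes 461 kept their direction and side of the threshold, 34 lost and 4 gained a call, and 27 changed sign in comparisons where the gene was not called. With no TMM factors these were Hoxb3 (0.07) and Hoxb4 (0.14) at D4 and Hoxb6 (0.17), Hoxc6 (0.11), Hoxc8 (0.02) and Hoxd3 (0.27) at D7. Hoxb5 at D7 was -0.01 with DESeq2, and Hoxd3 at D7 was 0.03 with the replicate block and 0.02 with at least 10 counts. With a library left out the sign turned within the range -0.88 to 1.04 for Hoxb3, -0.57 to 0.17 for Hoxb4, -1.01 to 0.36 for Hoxb5 and -0.09 to 0.56 for Hoxb6 at D4. At D7 the ranges were -0.62 to 1.30 for Hoxb3, -0.52 to 0.81 for Hoxb5, -0.42 to 0.23 for Hoxb6, -0.06 to 0.89 for Hoxb7, -0.90 to 0.01 for Hoxb9, -0.84 to 0.32 for Hoxc5, -0.38 to 0.04 for Hoxc6, -0.59 to 0.13 for Hoxc8, -0.37 to 0.41 for Hoxd3 and -0.82 to 0.07 for Hoxd9. The causes were not tested. At D4 the 95% interval was -4.41 to 0.49 for Hoxd10, with 2 to 14 counts in those libraries, and -1.42 to -0.44 for Hoxd8, with 91 to 133, so a 2-fold change in Hoxd10 could not be detected in these libraries.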
